A study of Arabidopsis thaliana with 6 samples.

Results

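The elements described here are 8 annotated transposable elements (TEs) of Arabidopsis thaliana that resemble CACTA transposons: AT2TE22040, AT5TE51685, AT4TE05190, AT4TE10345, AT1TE38940, AT1TE41230, AT2TE24525 and AT2TE63800. The elements were chosen by their transcript models, that is, every model that the authors paired with 1 of these identifiers, and by the exons and reads of those models. They came to 21 models of 829, at 8 of the 344 loci that had a TE transcript model in any library. RNA came from immature flower buds (stages 1 to 12) of Columbia plants. Poly(A) RNA was turned into PCR-amplified cDNA and read on a Nanopore sequencer. The 6 libraries were ddm1 rdr6 polV replicates B and A, ddm1 polV, ddm1 rdr6, ddm1 and wild type (wt). All mutants therefore carried ddm1. The labels give no alleles and give no plant of origin for replicates A and B, and genotypes other than the triple mutant had 1 library each. Replicate B was sequenced alone and more deeply in round 2 after 13 PCR cycles, and the other libraries together in round 1 after 14 cycles. The wt RNA was extracted with TriZOL and the mutant RNA with TriZOL LS. The files hold TE models only, so neither the tissue nor the mutated genes could be checked through marker genes.

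CACTA elements, known as En/Spm elements after their maize founders, are DNA transposons that move by excision and reinsertion. They end in short inverted repeats that begin with the letters CACTA, and insertion copies 3 bases of the target on either side. In maize, the Spm element encodes its proteins in alternatively spliced transcripts. In Arabidopsis, CACTA elements are silenced by DNA methylation, and some move when DDM1, a chromatin remodeler that maintains this methylation, is lost. RDR6, an RNA-dependent RNA polymerase, turns TE transcripts into precursors of small interfering RNAs, and Pol V is a plant RNA polymerase of RNA-directed DNA methylation.

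The label was checked against the genome sequence, because the files name no TE families. The letters searched were read from the elements themselves. Words of 13 letters that began with CACTA and lay before the models of all 8 were listed. They were ranked by how many elements had the reverse complement after the models, and the first word was taken. In all 8 elements this left end, CACTACAAGAAAA, was found before the models and its reverse complement TTTTCTTGTAGTG after them, with at most 1 mismatch over 13 letters. The left end in all 8 was fixed by this choice, and the right ends were favoured by it. The bases outside the ends were not part of the choice. In all 8, the 3 bases outside the left end equalled the 3 bases outside the right end, as a target site duplication would. Both ends with equal flanks were found at 27 of the other 336 loci (8.04%), by the same search within 6000 nt of the models. That share does not compare evenly with the 8 elements, because the word was chosen on them. The only mismatch lay in the right end of AT5TE51685. The ends of 3 elements are shown because they define the elements. Capitals mark the 24 terminal bases of the element, lower case marks the flanking target site bases, and coordinates are those of TAIR10.
AT2TE22040 left end, chr2:5440524-5440550, plus strand: tctCACTACAAGAAAACAGTCATTTTG
AT2TE22040 right end, chr2:5444552-5444578, plus strand: CAAAACGACTGTTTTCTTGTAGTGtct
AT5TE51685 left end, chr5:14379333-14379359, plus strand: ttaCACTACAAGAAAACAGTCAATTTG
AT5TE51685 right end, chr5:14383595-14383621, plus strand: CAAAACGACGGTTTTCTTGTAGGGtta
AT2TE63800 left end, chr2:14407891-14407917, plus strand: agaCACTACAAGAAAACAGTCGTTTTG
AT2TE63800 right end, chr2:14412387-14412413, plus strand: CAAAACGACTGTTTTCTTGTAGTGaga

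Measured between these ends, the elements were 3975 to 4554 nt long. AT2TE22040 (chr2:5440527-5444575, plus strand) had 4049 nt, AT5TE51685 (chr5:14379336-14383618, plus) 4283 nt and AT4TE05190 (chr4:1016802-1021355, plus) 4554 nt. AT4TE10345 (chr4:2208276-2212250, minus) had 3975 nt, AT1TE38940 (chr1:12016041-12020186, minus) 4146 nt and AT1TE41230 (chr1:12626457-12630547, plus) 4091 nt. AT2TE24525 (chr2:6027027-6031165, minus) had 4139 nt and AT2TE63800 (chr2:14407894-14412410, plus) 4517 nt. Across the genome, 36 pairs of exact ends lay 1000 to 15000 nt apart with equal flanks, and their median length was 7656 nt (range 2312 to 10153). The set held 7 of the 8 elements, AT5TE51685 being left out by its mismatch. The 24 terminal bases of the left and right end, read as inverted repeats, matched without a mismatch in AT4TE05190 and AT2TE63800 and with 4 mismatches in AT5TE51685.

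The elements fell into 2 sequence clusters plus 1 element apart. AT2TE22040, AT4TE05190, AT4TE10345 and AT2TE63800 shared 95.4 to 98.3% of aligned bases with each other. AT5TE51685, AT1TE38940 and AT2TE24525 shared 94.7 to 98.1%. Identity between the clusters was 79.5 to 81.3%, and AT1TE41230 was 83.1 to 87.5% identical to every other element. Copies this alike make the assignment of reads to a copy uncertain, most of all for short models. The models of AT4TE05190, AT2TE63800 and AT1TE38940 differed from the nearest other element of the group by 6 or 7 substitutions each. The single-exon models of AT4TE10345 differed by 22 or 23. Copies outside the group were not compared in this way and may be closer. For AT2TE24525, the genome search given below found a place without a model at 95.1% identity over the span of its model. Other members reached at most 88.7% in that search.

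**Figure D1:**
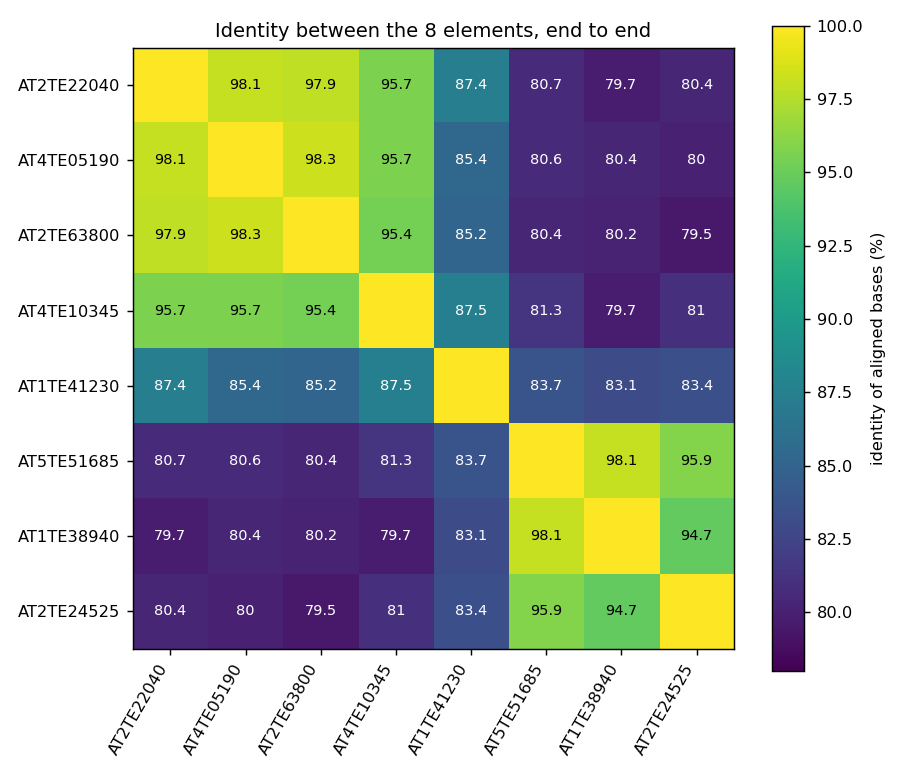
Identity of aligned bases (colour and printed value, %) between the 8 elements compared end to end in pairs. The 4 elements at the upper left share 95.4 to 98.3%, the 3 at the lower right 94.7 to 98.1%, and AT1TE41230 lies between them.

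Each element lay over an annotated pseudogene on the strand of its models: AT2G13160 for AT2TE22040, AT5G36655 for AT5TE51685, AT4G02314 for AT4TE05190 and AT4G04430 for AT4TE10345. The others were AT1G33130 for AT1TE38940, AT1G34530 for AT1TE41230, AT2G14230 for AT2TE24525 and AT2G34130 for AT2TE63800. AT5TE51685 and AT2TE24525 also overlapped pseudogenes on the opposite strand, AT5G36650 and AT2G14240. AT2TE63800 lay inside the span of the protein-coding gene AT2G34100, on the opposite strand. The models of AT4TE10345 were paired with AT4TE10350 as well. Of the 8 elements, 5 lay in gene-poor bins of 500 kb (62.5%), against 264 of all 344 loci (76.7%).

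Transcript models of these elements appeared in mutant libraries that combined ddm1 with 1 or both of the other mutations, and in neither ddm1 nor wt. Members with a model numbered 8 in ddm1 rdr6 polV B (where 97.1% of all 344 loci had one), 1 in ddm1 rdr6 polV A (23.3%), 4 in ddm1 polV (36.9%), 2 in ddm1 rdr6 (26.7%), 0 in ddm1 (12.8%) and 0 in wt (1.74%). The presence of models is what chose the elements, so these counts are a description and carry no test. Cluster reads, the number of reads that the authors' clustering put into each model, summed to 271 in ddm1 rdr6 polV B, 14 in ddm1 rdr6 polV A, 68 in ddm1 polV and 35 in ddm1 rdr6. As a share of the cluster reads of all TE models, that was 1.58% in ddm1 rdr6 polV B (exact Clopper-Pearson 95% interval 1.4 to 1.78), 0.604% in ddm1 rdr6 polV A (0.331 to 1.01), 1.58% in ddm1 polV (1.23 to 2.0) and 1.12% in ddm1 rdr6 (0.781 to 1.55). Among libraries with a model of the group, the share was lowest in ddm1 rdr6 polV A, which has the genotype of B. The equal shares of ddm1 rdr6 polV B and ddm1 polV held for all TE models only. They became 4.03% in ddm1 rdr6 polV B and 2.89% in ddm1 polV when set against reads of identifiers found in every mutant library, and 1.2% in ddm1 rdr6 polV B and 0.0% in ddm1 polV with models of at least 20 reads. The intervals measure counting error alone, because PCR copies without molecular identifiers are not independent molecules.

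Depth limits where models could be seen, because no deposited model had fewer than 10 reads. All TE models together held 17106 reads in ddm1 rdr6 polV B, 2317 in ddm1 rdr6 polV A, 4303 in ddm1 polV, 3128 in ddm1 rdr6, 1212 in ddm1 and 136 in wt. Scaled to the total of ddm1, the members' reads would be 0.85 to 4.04 from ddm1 rdr6 polV B, 7.32 from ddm1 rdr6 polV A, 3.1 to 6.2 from ddm1 polV and 4.26 to 9.3 from ddm1 rdr6. Every one of these expected values is under 10, so at the same share of TE reads a model in ddm1 would not be expected. Counting error could still lift a value near 10 over the minimum. A difference between any of these libraries and ddm1 can therefore not be read from the lack of models in ddm1. Scaled from ddm1 rdr6 polV B to the total of ddm1 rdr6 polV A, all 8 members also fall under 10 reads (1.63 to 7.72), and 1 of them had a model there. Other scalings reached 10 reads in libraries where the element had no model. AT2TE22040 came to 17.8 reads scaled from ddm1 rdr6 and 11.8 scaled from ddm1 polV to ddm1 rdr6 polV A. Scaled from ddm1 polV to ddm1 rdr6, AT4TE05190 came to 13.1 reads and AT4TE10345 to 12.4, and scaled from ddm1 rdr6 polV B to ddm1 polV, AT2TE24525 came to 12.1. These values leave out counting error, and the reads of AT2TE22040 in ddm1 polV and of AT2TE24525 in ddm1 rdr6 polV B were split over 2 models each. The part of depth in these 4 elements' missing models was not tested.

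Against ddm1, each element with a model was by definition called in the other library, and the same held for most loci of the series. Of the loci with a model in either library, those with a model only in the first were 86.9% for ddm1 rdr6 polV B against ddm1 (8 of 8 members), 52.2% for ddm1 rdr6 polV A against ddm1 (1 of 1), 66.4% for ddm1 polV against ddm1 (4 of 4) and 53.2% for ddm1 rdr6 against ddm1 (2 of 2). With ddm1 against wt the share was 87.2%, and no member had a model in either library. Nothing is read from these members' counts, since models in these libraries chose them. Between mutants, 7 of 8 members had a model in ddm1 rdr6 polV B and none in ddm1 rdr6 polV A, against 76% of all loci, and 4 of 8 had one in ddm1 rdr6 polV B and none in ddm1 polV, against 62.8%. For ddm1 rdr6 polV B against ddm1 rdr6 the count was 6 of 8, against 72.7%. In ddm1 rdr6 polV A, 0 of 4 members had a model that ddm1 polV lacked, against 11.2%, and 1 of 3 had a model that ddm1 rdr6 lacked, against 20%. These shares lie near those of all loci, given so few members.

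Of the members, 4 had models in several libraries. AT2TE22040 had 57 cluster reads in ddm1 rdr6 polV B, none in ddm1 rdr6 polV A, 22 in ddm1 polV, 24 in ddm1 rdr6 and none in ddm1 or wt. AT5TE51685 had 51 reads in ddm1 rdr6 polV B, none in ddm1 rdr6 polV A, 11 in ddm1 polV, 11 in ddm1 rdr6 and none in ddm1 or wt. Both had most reads in the deepest library, and they alone were seen in ddm1 rdr6. Relative to the TE reads of each library the order differed. Scaled from ddm1 rdr6 polV B, AT2TE22040 would have 10.4 reads in ddm1 rdr6, where 24 were seen, and 14.3 in ddm1 polV, where 22 were seen. AT5TE51685 would have 9.33 reads in ddm1 rdr6 and 12.8 in ddm1 polV, where 11 were seen in each. AT4TE10345 had 53 reads in ddm1 rdr6 polV B, 14 in ddm1 rdr6 polV A, 17 in ddm1 polV and none in ddm1 rdr6, ddm1 or wt. AT4TE05190 had 15 reads in ddm1 rdr6 polV B and 18 in ddm1 polV, and none in the other libraries. It was the only member with more reads, unscaled, in another library than in ddm1 rdr6 polV B. Scaled from ddm1 rdr6 polV B, it would have 3.77 reads in ddm1 polV, and AT4TE10345 would have 7.18 in ddm1 rdr6 polV A and 13.3 in ddm1 polV, each below the reads seen. Reads are seen only in models of at least 10, so an expected value under 10 lies below any reads seen. This holds for 3.77, for 7.18 and for the 9.33 of AT5TE51685 in ddm1 rdr6. The differences between expected and seen reads were not tested. The remaining 4 had models in ddm1 rdr6 polV B alone, with 48 reads for AT2TE24525, 22 for AT2TE63800, 13 for AT1TE38940 and 12 for AT1TE41230. Models in ddm1 rdr6 polV B alone were also the case at 54.1% of all loci.

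**Figure D2:**
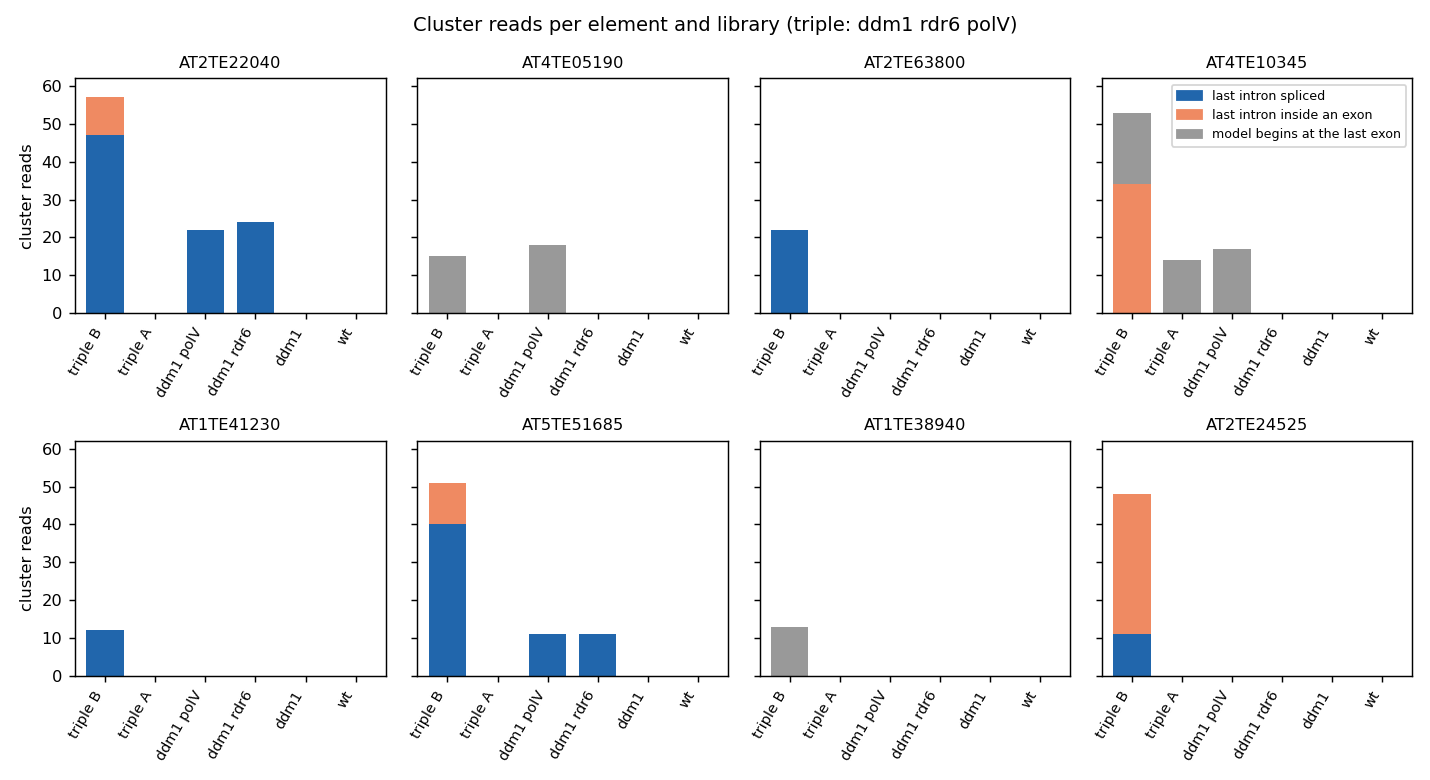
Cluster reads (y axis) of each element in the 6 libraries (x axis), stacked by whether the model spliced the last intron, ran through it within an exon, or began at the last exon. AT2TE22040 and AT5TE51685 have bars in ddm1 rdr6 polV B, ddm1 polV and ddm1 rdr6, and retained forms only in ddm1 rdr6 polV B.

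AT4TE10345 was the only element present in both triple mutant libraries. Its reads in ddm1 rdr6 polV B were above those in ddm1 rdr6 polV A by 1.92 on the log2 scale, against a median of 2.17 (SD 1.39) over the 80 loci with a model in both. Many models stood close to the minimum. The median model of the group had 14 reads, against 17 for all models, and 8 of its 21 models had 10 or 11 reads, just inside the threshold of 10.

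The loci whose reads across the 6 libraries were most like a member's were ranked by the root mean square difference of log2(reads + 1). For AT2TE22040 they were a second locus of AT1TE42890 (0.35), AT2TE16710 (0.39) and AT2TE23965 (0.43). For AT5TE51685 they were AT3TE58540 (0.06), AT5TE55140 (0.14) and AT2TE23965 (0.2). AT4TE10345 was closest to AT2TE26855 (0.22), AT4TE09845 (0.24) and AT1TE39375 (0.28). The second AT1TE42890 locus also matched an En/Spm protein.

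Spliced models were found at 6 of the 8 elements, against 56.1% of all loci (193 of 344), and models of 5 exons or more at 5 of 8, against 11.9% (41 of 344). Exon number was named in the choice of the group, so these counts are a description. Without ddm1 rdr6 polV B, the other libraries gave a spliced model at 2 of the 8. The longest structures had 7 exons, in AT5TE51685 and AT2TE24525, out of 10 loci with so many. The median spliced length was 1709 nt for the group's models, against 693 nt for all models.

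AT5TE51685 gave the fullest structure. Its 7-exon model had 40 reads in ddm1 rdr6 polV B, 11 in ddm1 polV and 11 in ddm1 rdr6, with exons of 217, 109, 291, 127, 306, 222 and 478 or 479 nt. The exon boundaries inside the transcript were the same to the base in the 3 libraries. A 6-exon model of 11 reads, in ddm1 rdr6 polV B, joined the last pair of exons and the intron between them into 1 exon of 1177 nt. The 6 introns of AT5TE51685 are used below to number the introns of all copies.

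AT2TE22040 had 6 exons of 262, 281, 127, 306, 222 and 478 to 531 nt. This form had 47 reads in ddm1 rdr6 polV B, 22 in ddm1 polV as 2 models of 11 reads that differed at the 3′ end, and 24 in ddm1 rdr6. A 5-exon form of 10 reads in ddm1 rdr6 polV B ended in an exon of 1116 nt that held the last intron. AT2TE24525, seen in ddm1 rdr6 polV B, had a 6-exon model of 37 reads ending in an exon of 1218 nt and a 7-exon model of 11 reads. AT1TE41230 had 1 model of 5 exons and 12 reads.

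AT4TE10345 had 2 models of 5 exons in ddm1 rdr6 polV B, with 23 and 11 reads, and single-exon models in 3 libraries: 496 nt and 19 reads in ddm1 rdr6 polV B, 471 nt and 14 reads in ddm1 rdr6 polV A, and 492 nt and 17 reads in ddm1 polV. These 3 are the group's truncated models, defined as starting or ending more than 100 nt inside the longest model of their locus. AT4TE05190 had single-exon models alone, of 471 nt in ddm1 rdr6 polV B and 502 nt in ddm1 polV. AT1TE38940 had 1 exon of 464 nt, and AT2TE63800 had a 48 nt exon joined to one of 531 nt over an intron of 652 nt. All short models thus covered the 3′ part of the element, and their own locus showed no longer form except in AT4TE10345. The start of a short model can be a transcript start or the end of an incomplete cDNA, and which it was here was not tested.

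**Figure D3:**
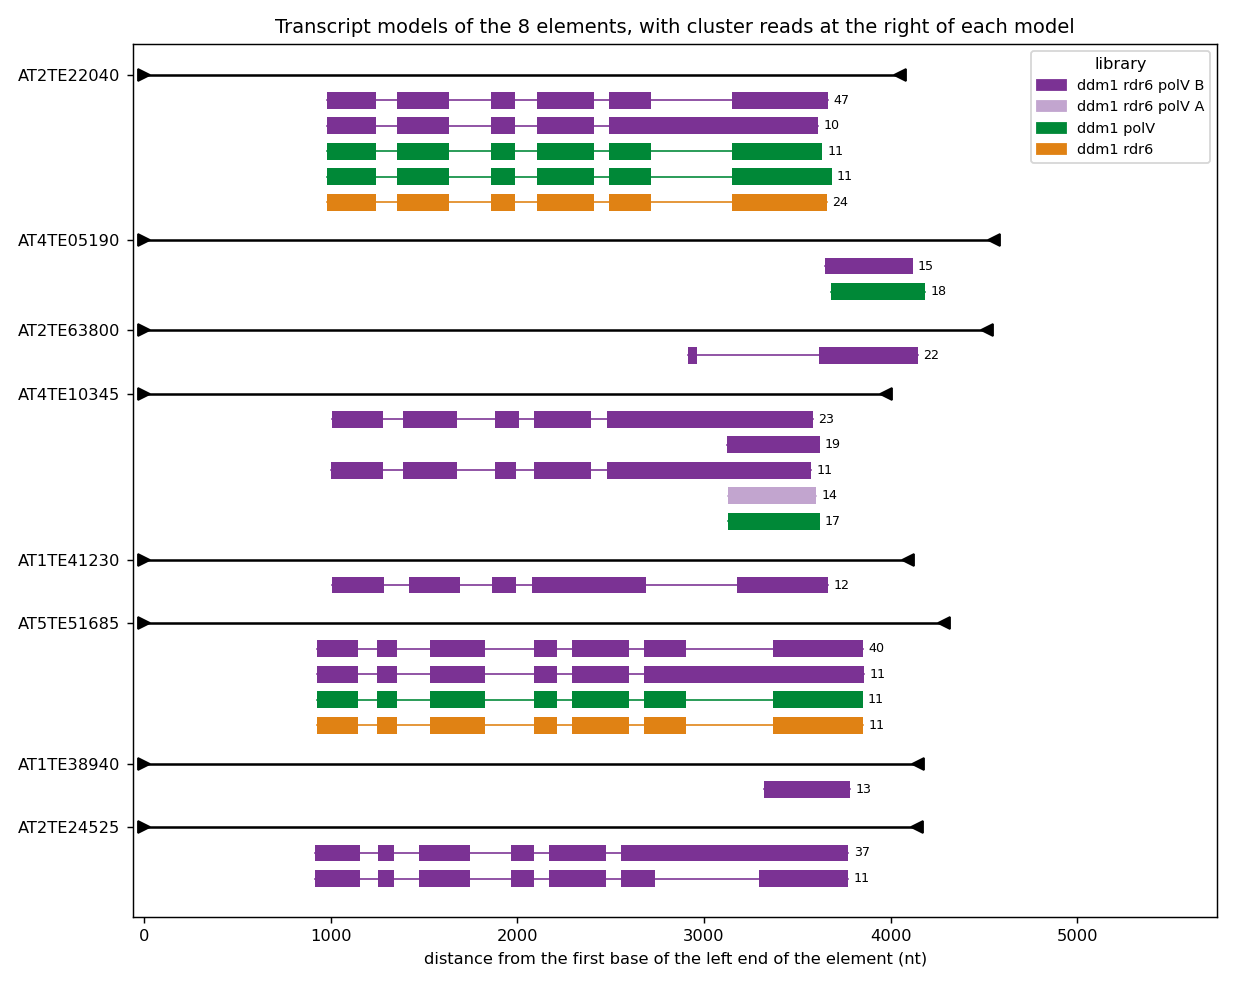
Exons (boxes) and introns (thin lines) of the 21 models, drawn to scale by distance from the left end of each element (nt), with arrowheads at the element ends, colours for the libraries and cluster reads at the right. The long models of 5 elements begin 917 to 1007 nt inside the element, and the short models of the others cover its 3′ part.

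Introns lay at the same places in different copies. The 21 models held 27 distinct introns, all with GT at the start and AG at the end, of 77 to 652 nt (median 117 nt, against 102 nt for all introns of the series). When each intron was carried through the alignment to the other copies, 21 of 27 (77.8%) met an intron of another copy at both ends within 3 nt, with 80% identity or better in the 50 exonic bases on each side. Identity was counted over the bases of the copy the intron was carried from. Counted from either copy, 22 of 27 met the limits, the further one being the intron before intron 3 of AT2TE24525. All 11 introns found in round 1 libraries were found again in ddm1 rdr6 polV B (exact 95% interval of the share 71.5 to 100%). These 11 belonged to AT2TE22040 and AT5TE51685 alone and lay together in the same models. The interval treats these linked introns as independent and is thus too narrow.

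Introns 3 and 4 were spliced in all 5 elements with long models, and intron 5 in 4 of them. Intron 6 was spliced at both shared sites in AT2TE22040, AT5TE51685, AT1TE41230 and AT2TE63800, the last with a short model. Intron 5 measured 82 nt in all 8 copies, whether or not a model covered it. Intron 3 varied between 171 and 263 nt and intron 4 between 77 and 117 nt. The stretches between them, placed through the alignments whether or not a model had them as an exon, were far more alike in length. The stretch between introns 3 and 4 measured 127 nt in all 8 copies, and it was an exon in the 5 elements with long models. The stretch between introns 4 and 5 measured 306 nt in 6 copies, 307 nt in AT1TE38940 and 305 nt in AT2TE24525. It was an exon in AT2TE22040, AT5TE51685, AT4TE10345 and AT2TE24525. The stretch between introns 5 and 6 measured 222 nt in all 8, but models had it as an exon in AT2TE22040 and AT5TE51685 alone.

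The 5′ part was less shared. AT2TE22040, AT4TE10345, AT1TE41230 and AT2TE24525 used a common acceptor, followed by an ATG, for the intron before intron 3 (110 to 134 nt long), and AT5TE51685 used another acceptor for its intron 2 (179 nt). An intron before that was found in AT5TE51685 (102 nt) and AT2TE24525 (99 nt) alone. At the place of intron 1 of AT5TE51685, AT2TE22040, AT4TE10345 and AT1TE41230 had neither GT nor AG, and their first exon ran through it in 103, 34 and 12 reads.

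The long models also began at the same place. They started 979 nt inside the element in AT2TE22040, 927 nt in AT5TE51685, 1002 and 1006 nt in AT4TE10345, 1007 nt in AT1TE41230 and 917 nt in AT2TE24525. Carried through the alignments, these starts fell between 4 nt before and 6 nt after that of AT2TE22040. All 5 models of AT2TE22040, from 3 libraries, shared their first base, as did all 4 of AT5TE51685. The windows below hold 60 bases before the first base of the model and 10 after it, and capitals mark the letters TATATA nearest to the start.
AT2TE22040 start, chr2:5441445-5441515, plus strand: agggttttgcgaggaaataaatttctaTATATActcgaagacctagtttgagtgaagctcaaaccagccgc
AT5TE51685 start, chr5:14380202-14380272, plus strand: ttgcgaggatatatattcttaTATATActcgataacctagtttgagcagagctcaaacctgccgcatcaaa
AT1TE41230 start, chr1:12627403-12627473, plus strand: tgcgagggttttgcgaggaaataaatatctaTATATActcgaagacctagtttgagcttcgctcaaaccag

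The letters TATATA, searched on the transcribed strand, began 29 to 39 nt before the start in all 6 distinct starts of the long models. Within the same 60 nt, they were found before 84 of the 471 distinct starts of the series (17.8%). The motif was chosen after the windows had been read. TATAAA, the letters searched first, was found before 0 of the 6 starts and 15.7% of all starts. At the other side, the models ended 357 to 441 nt before the right end of the element, and AATAAA lay in the last 50 nt of 0 of 19 distinct ends, against 14.2% of the 634 distinct ends of the series. The 6 starts lie at aligned positions of related copies, and the 19 ends come from related copies too. Neither set holds independent cases, unlike what a plain reading of the shares would assume. A match or its absence describes these letters only.

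Intron 6, the last one, was spliced in some copies and lay inside an exon in others. Where a model covered it, it was spliced in 200 reads and lay inside an exon in 92. The 200 include 11 reads of AT2TE24525 that used another donor. A further 96 reads belonged to single-exon models that began within 30 nt of the acceptor of intron 6. An intron of 1 model inside an exon of another model at the same locus was found at 3 of 8 elements, AT2TE22040, AT5TE51685 and AT2TE24525, and at 6.1% of all loci (21 of 344). Only a locus with more than 1 model and an intron can show this, and 193 of the 344 loci had a spliced model. The 6.1% is thus no even comparison for elements with several long models. The comparison was chosen after the values had been seen. The acceptors of intron 6 are shown because their letters differ between copies. Capitals mark the bases at the intron's end.
AT2TE22040, chr2:5443662-5443680, plus strand: tttgtgatctttgcAGgtt
AT5TE51685, chr5:14382690-14382708, plus strand: tttgtgacctttgcAGgtt
AT1TE41230, chr1:12629618-12629636, plus strand: tttgtgatctttgcAGgtt
AT2TE63800, chr2:14411492-14411510, plus strand: tttgtgatctttgcAGgtt
AT2TE24525, chr2:6027871-6027889, minus strand: tttgtgacctttgcAGgtt
AT1TE38940, chr1:12016879-12016897, minus strand: tttgtgacctttgcAGgtt
AT4TE10345, chr4:2209151-2209169, minus strand: tttgtgatctttgcCGgtt
AT4TE05190, chr4:1020437-1020455, plus strand: tttgtgatctttgcTGgtt

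The acceptor ended in AG in 6 copies, in CG in AT4TE10345 and in TG in AT4TE05190. In AT4TE10345, both long models in ddm1 rdr6 polV B ran through intron 6. Of their 34 reads, 0 were spliced (0%, exact 95% interval 0 to 10.3%). A form of fewer than 10 reads has no model, so this interval and those below do not bound the share in all transcripts. AT4TE05190 had no model that reached across intron 6, and its 33 reads came from single-exon models. The single-exon models began between 6 nt before and 30 nt after the first base of the last exon, in these 2 copies and in AT1TE38940, whose acceptor has AG.

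In the copies with AG, intron 6 was spliced in 82.5% of the 57 reads of AT2TE22040 in ddm1 rdr6 polV B (70.1 to 91.3%), and in all 22 reads in ddm1 polV and all 24 in ddm1 rdr6. AT5TE51685 had 78.4% spliced of 51 reads in ddm1 rdr6 polV B (64.7 to 88.7%), and all 11 reads in ddm1 polV and all 11 in ddm1 rdr6. The retained forms of both elements had 10 and 11 reads and were found in the deepest library alone. A form at the same share would be expected to have too few reads for a model in the other libraries. No difference in splicing between genotypes can thus be read from this. AT1TE41230 was spliced in 12 of 12 reads and AT2TE63800 in 22 of 22, both in ddm1 rdr6 polV B. A retained form of fewer than 10 reads would have no model there, so complete splicing cannot be read from these counts.

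AT2TE24525 kept AG but differed at the donor of intron 6, where it read gaaGTaaat and the other 7 copies gagGTaaat, the capitals marking the first bases of the intron. No model used that donor. In ddm1 rdr6 polV B, 37 reads ran through intron 6 and 11 used a donor 41 nt further upstream, cagGTggac, which gave an intron of 557 nt. The share spliced by any donor was 22.9% (12.0 to 37.3%).

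Similar differences appeared at single sites of the inner introns. At intron 5, AT1TE41230 read cggGTtaga, and its 12 reads ran through it in an exon of 610 nt. AT4TE05190 and AT2TE63800 had the same letters, without a model there. The 4 elements that spliced intron 5 read GTaaga, in 103 reads of AT2TE22040, 73 of AT5TE51685, 34 of AT4TE10345 and 48 of AT2TE24525. At intron 4, AT4TE10345 read gcaGTaagt, and 23 of its reads used this donor while 11 used atgGTatga, 16 nt upstream. The values of AT1TE41230 and AT4TE10345 rest on ddm1 rdr6 polV B alone, and the part of the letters in the splicing was not tested.

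**Figure D4:**
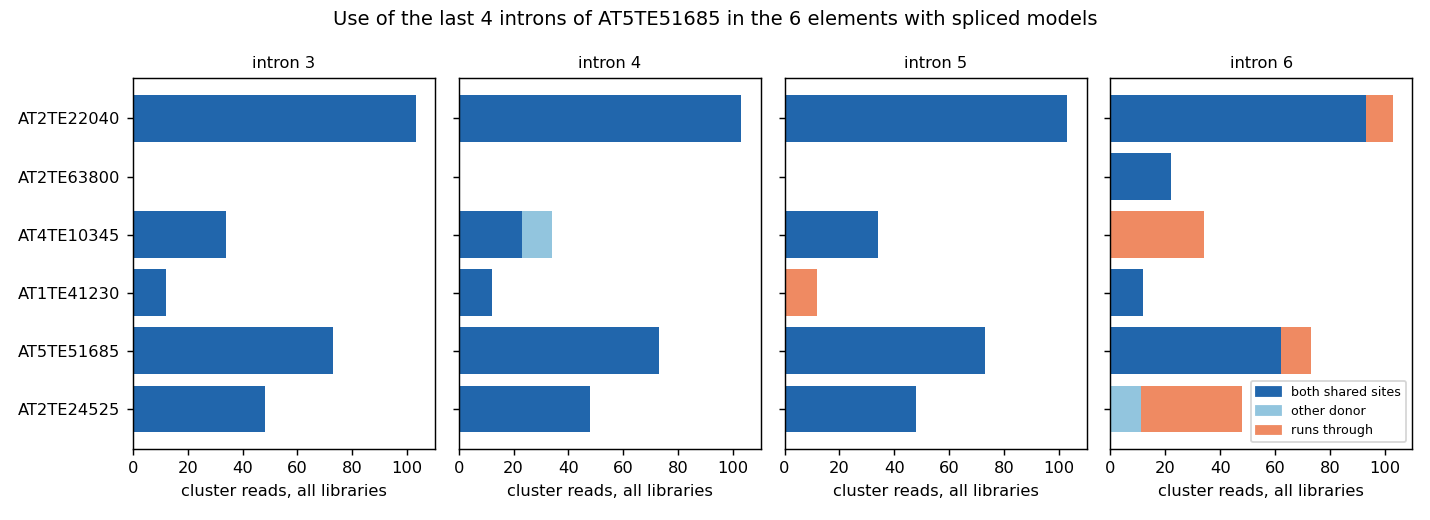
Cluster reads over all libraries (x axis) that used both shared splice sites, used another donor, or ran through introns 3 to 6, in the 6 elements with a spliced model (rows). Introns 3 and 4 have no reads running through, intron 5 has the 12 reads of AT1TE41230, and intron 6 has run-through reads in 4 elements.

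The longest reading frame from ATG to stop differed with these structures. In AT2TE22040 it had 437 codons in the spliced 6-exon models of all 3 libraries and began at the first base of the second exon, at nt 263 of the transcript. In its form with intron 6 retained, the frame began at the same base and had 337 codons. In AT5TE51685 the numbers were 433 codons with 7 exons and 324 with intron 6 retained. The other elements with long models had shorter frames: 198 codons in AT1TE41230, 176 and 201 in AT4TE10345, and 163 in both models of AT2TE24525. Short models held 119 codons in AT2TE63800, 99 and 101 in AT4TE05190, 61 in AT1TE38940 and 52 to 73 in AT4TE10345. The median was 198 codons for the group's models and 73 for all models, whose spliced lengths also differed as given above.

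A translated search against 6 reference proteins named En/Spm matched AT5TE51685 alone among the 8 elements. Its 7-exon model matched AT3G30200, a plant transposase of the Ptta/En/Spm family, at 25.7% identity over 218 residues (BLAST e-value 3.17e-08). By the same search, 29 of the other 336 loci had a match. Since 1 of the 8 elements matched, loci without a match may be CACTA elements too. Of these 29, 29 had a model in ddm1 rdr6 polV B, 3 in ddm1 rdr6 polV A, 11 in ddm1 polV, 4 in ddm1 rdr6, 1 in ddm1 and 0 in wt. All 29 had a spliced model. Their median largest exon number was 4, that of the 8 elements 5, and that of all loci 2, so many exons were not particular to the group. Over all libraries, the 29 loci had a median of 18 cluster reads per locus, the 8 elements 40.5 and all loci 25. The sets were chosen in different ways, the 8 elements with their reads and exons known, so these medians are a description. The other matching locus with most reads, AT2TE19610, had up to 7 exons. It had 842 reads in ddm1 rdr6 polV B, 137 in ddm1 rdr6 polV A, 272 in ddm1 polV, 49 in ddm1 rdr6, 26 in ddm1 and none in wt. It thus had models in all 5 mutant libraries, which no member of the group did. AT2TE07745 had 346 reads over all libraries, AT1TE42225 had 115, the second AT1TE42890 locus 72 and AT5TE65540 63.

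Not all copies in the genome had a model. The 37-read model of AT2TE24525, with its introns (2856 nt), matched 8 places with a minimum identity of 80% and a minimum coverage of 50% of its length. Of these, 4 were members and 4 had no model: chr2:5524024-5526943 (95.1% identity), chr1:16608385-16611149 (88.8%), chr2:4404685-4407004 (92.9%) and chr5:11171385-11174215 (81.3%). At 75% identity or more, a setting added because 4 members are further from the query, 15 places matched. They held all 8 members, AT1TE52200 with 25 reads, and 6 places without a model, chr2:2660983-2663572 (76.5%) among them. A place without a model may still have given reads below the minimum of 10, and reads of near-identical copies may have been placed elsewhere, which was not tested.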

How the data were processed

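Per the file headers and source column, the authors deposited for each library transcript models made by pinfish, which clusters long reads, and lists pairing models with TE identifiers; the submitters' processing notes name minimap2 and TAIR10. The sources used here do not give versions, cluster settings, the pairing rule or library totals. The number closing each deposited model name, never under 10, was taken for its cluster reads, following how pinfish names clusters. Groups were taken from sample titles. Overlapping same-strand models (1 bp) were merged into loci. Sequence came from TAIR10.1. The match of builds was checked through splice sites, and 501 of 509 introns (98.4%) were GT-AG.

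Element ends were searched within 6000 nt of the models, with 1 mismatch allowed. Copies were aligned in pairs with MAFFT 7.526, and intron positions were carried through the alignments, a step tested on simulated data. BLAST+ 2.17.0 was used for protein matches (e-value 1e-05) and genome copies (1e-10). Gene-poor bins (500 kb) had under 40% of bases in protein-coding genes, and distance to a centromere was not used. Scripts ran on Python 3.11.15 with biopython 1.88, pysam 0.24.0, scipy 1.17.1, numpy 2.4.6 and matplotlib 3.10.9.

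No test between genotypes was made: genotypes other than the triple mutant have 1 library, the triple mutant replicates differ in round and depth, and the presence of models chose the members. Shares have exact Clopper-Pearson 95% intervals. The members and lists were chosen with earlier results of these data known. Named were all 8 members with every model, genes overlapping their exons and the 3 most alike loci for members in 3 or more libraries. Also named were the 5 other loci with an En/Spm protein match and most reads, and the 5 best matching copies without a model. Alternatives changed the minimum reads, model assignment, denominator, replicates, intron tolerance and identity, truncation limit and copy identity.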

Additional observations from a re-analysis of the deposited data

How the results depend on the processing

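With models of at least 20 reads in place of 10, members with a model numbered 5 over all libraries, 5 in ddm1 rdr6 polV B, 0 in ddm1 rdr6 polV A, 0 in ddm1 polV and 1 in ddm1 rdr6, and the group's share of TE reads became 1.2% in ddm1 rdr6 polV B, 0.0% in ddm1 rdr6 polV A and 0.0% in ddm1 polV. With the reads of identifiers found in every mutant library as denominator, the share was 4.03% in ddm1 rdr6 polV B, 2.89% in ddm1 polV and 1.73% in ddm1 rdr6. When each triple mutant replicate was left out, its members with a model ranged from 1 to 8, its group reads from 14 to 271 (285 with both), and members with a spliced model in any library from 2 to 6, the lower values being those without replicate B. Truncated models numbered 6 with a limit of 50 nt, and copies without a model 2 at 90% identity or more. These changes follow from how the settings are built: fewer models, libraries, denominator reads or places were counted, and the shorter limit of 50 nt counts more models as truncated. The remaining 24 values were equal, inside the interval of the reported share, or within 1.5 times the reported value. Among them were 21 of 27 shared introns under every tolerance and identity tried. Copies without a model at 75% identity or more, 6 against 4, lay just at the limit of 1.5 times. No paired analysis was possible because genotypes other than the triple mutant have 1 library each, so no 2 genotypes share more than 1 replicate number. Limits are the minimum of 10 reads, the unknown library totals, and the near-identical copies.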
